A study of Mus musculus with 6 samples.

Results

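Nuclear receptors are transcription factors that read small lipophilic ligands or act without a known ligand. Some have roles in the choice between self-renewal and differentiation of mouse embryonic stem (ES) cells. Described here are 7 nuclear receptors: Esrrb, Esrra, Nr0b1, Nr5a2, Nr6a1, Rarg and Nr2f2. Their members on the arrays were all probe sets, the groups of short probes that measure a transcript, whose only gene symbol in the platform annotation is one of these names. This gave 23 of 45037 probe sets, for 7 of 18193 named genes. RNA was hybridised to Affymetrix mouse expression arrays from E14TG2a, a single mouse ES cell line. The 3 undifferentiated samples were grown with leukaemia inhibitory factor (LIF, 1000 units/ml), the cytokine that holds mouse ES cells in self-renewal, and sorted by FACS as negative for the cell surface glycoprotein 5T4. In the 3 differentiating samples LIF had been withdrawn for 3 days and 5T4-positive cells were sorted. Both groups were grown on gelatin, trypsinised and labelled with the 9A7 antibody to 5T4, and the labels name no transgene or deletion in either. The growth protocol names both serum and serum replacement and does not say which was used for a sample. The effect of LIF and that of the sort cannot be told apart. Nothing in the sources used here says that the replicates were separate cultures, so p-values measure only how these samples spread, which may be technical in part. The study's methods describe the samples as having minimal variance within replicates. They do not say whether samples were chosen for it, which would make p-values too small.

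In the mouse ES cell in the naive state, the state of the preimplantation epiblast, LIF acts through STAT3 to sustain a set of transcription factors around Oct4, Sox2 and Nanog. Esrrb and Nr5a2 (also called LRH-1) are orphan receptors that bind DNA and activate genes of this set, and Nr0b1 (also called DAX1) is a receptor without the usual DNA-binding domain that represses other receptors, Nr5a2 among them, by binding to them. Rarg binds retinoic acid as a partner of the RXR receptors. Nr6a1 (also called GCNF) is known to repress the Oct4 gene when ES cells differentiate, Nr2f2 (also called COUP-TFII) acts in later lineages such as mesenchyme, and Esrra, the close relative of Esrrb, is known for its control of mitochondrial genes.

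These receptors mostly recognise the 6 bases AGGTCA, alone or as a pair, and Esrrb, Esrra and Nr5a2 bind a single copy with a preceding A or CA. The 250 bases before the annotated transcript starts of the members were therefore read from RefSeq (GRCm38.p6) and searched on both strands for AGGTCA, for the longer AAGGTCA, every match of which is also a match of AGGTCA, and for TTCNNNGAA, the motif of STAT factors. All 7 genes were found, with 11 windows. AGGTCA was present in 4 of 11 windows and in 4607 of the 32851 windows of all genes, AAGGTCA in 1 of 11 and 4.08% of all windows, and TTCNNNGAA in 1 of 11 and 7.02% of all windows. The 5 windows with a match are printed, and that of Esrrb matched TTCNNNGAA but not AGGTCA. Esrrb, Nr5a2, Nr6a1 and Rarg each also had a window without a match, and Esrra and Nr2f2 had no match. Whether a match goes with a difference between the groups was not tested. Each printed window is given 5′ to 3′ in the direction of the gene, with the matches to AGGTCA (or TGACCT, its reverse complement) and to TTCNNNGAA in capitals. The windows are Esrrb chr12:86360867-86361116 (plus strand), Nr0b1 chrX:86191525-86191774 (plus strand), Nr5a2 chr1:136960449-136960698 (minus strand), Nr6a1 chr2:38784516-38784765 (minus strand) and Rarg chr15:102257523-102257772 (minus strand).
Esrrb: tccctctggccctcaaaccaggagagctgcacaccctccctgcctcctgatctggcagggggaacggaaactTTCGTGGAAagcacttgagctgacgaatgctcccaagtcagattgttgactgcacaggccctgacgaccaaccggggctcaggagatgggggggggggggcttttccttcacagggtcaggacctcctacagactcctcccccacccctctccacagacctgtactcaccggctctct
Nr0b1: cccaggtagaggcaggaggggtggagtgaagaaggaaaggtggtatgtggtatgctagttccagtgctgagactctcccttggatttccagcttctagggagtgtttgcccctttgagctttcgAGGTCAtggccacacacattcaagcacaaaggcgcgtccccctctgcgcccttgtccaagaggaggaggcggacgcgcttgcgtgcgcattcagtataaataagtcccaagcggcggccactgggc
Nr5a2: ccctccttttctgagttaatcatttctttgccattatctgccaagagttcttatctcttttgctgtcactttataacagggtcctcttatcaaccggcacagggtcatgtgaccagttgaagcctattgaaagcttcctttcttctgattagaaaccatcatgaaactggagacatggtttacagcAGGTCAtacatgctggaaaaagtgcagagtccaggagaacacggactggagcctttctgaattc
Nr6a1: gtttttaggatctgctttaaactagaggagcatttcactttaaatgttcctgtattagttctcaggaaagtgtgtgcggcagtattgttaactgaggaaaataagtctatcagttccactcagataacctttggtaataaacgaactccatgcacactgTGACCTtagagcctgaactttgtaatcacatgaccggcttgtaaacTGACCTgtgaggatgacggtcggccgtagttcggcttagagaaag
Rarg: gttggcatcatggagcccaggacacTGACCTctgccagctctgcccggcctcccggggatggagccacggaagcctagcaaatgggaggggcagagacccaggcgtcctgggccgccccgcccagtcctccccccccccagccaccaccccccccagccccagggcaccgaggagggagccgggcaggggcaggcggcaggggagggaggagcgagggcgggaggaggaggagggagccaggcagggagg
The AGGTCA match began 126 bases before the start of Nr0b1, 64 bases before that of Nr5a2 and 225 bases before that of Rarg. Nr6a1 had matches that began 91 and 45 bases before its start, and the farther one was the AAGGTCA match. A match describes the letters of the window and is no evidence of binding, and binding was not measured on these arrays.

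Of the 23 member probe sets, 3 were significantly lower in differentiating cells (adjusted p under 0.1, the false discovery rate of the methods, from limma over all probe sets), which were both probe sets of Rarg and 1 of 3 of Esrrb. Of all probe sets tested, 1.03% were lower by this rule and 0.573% were higher. None of the 23 was significantly higher, although 3 of Nr6a1 were higher at an unadjusted p under 0.05 (6.28% of all probe sets were), and 9 members were lower at that level (7.44% of all were). In 9 of 23 every differentiating array lay below every undifferentiated array, against 10.3% of all probe sets, and in 5 every differentiating array lay above, against 10.0%. Values are RMA values on the log2 scale, so that a difference of 1 is a factor of 2, and they are compared only within a probe set. Detection calls were not used here, so low values may be background, and folds against them are then too small. In these bulk samples, fewer cells with a transcript and less of it per cell cannot be told apart.

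**Figure D1:**
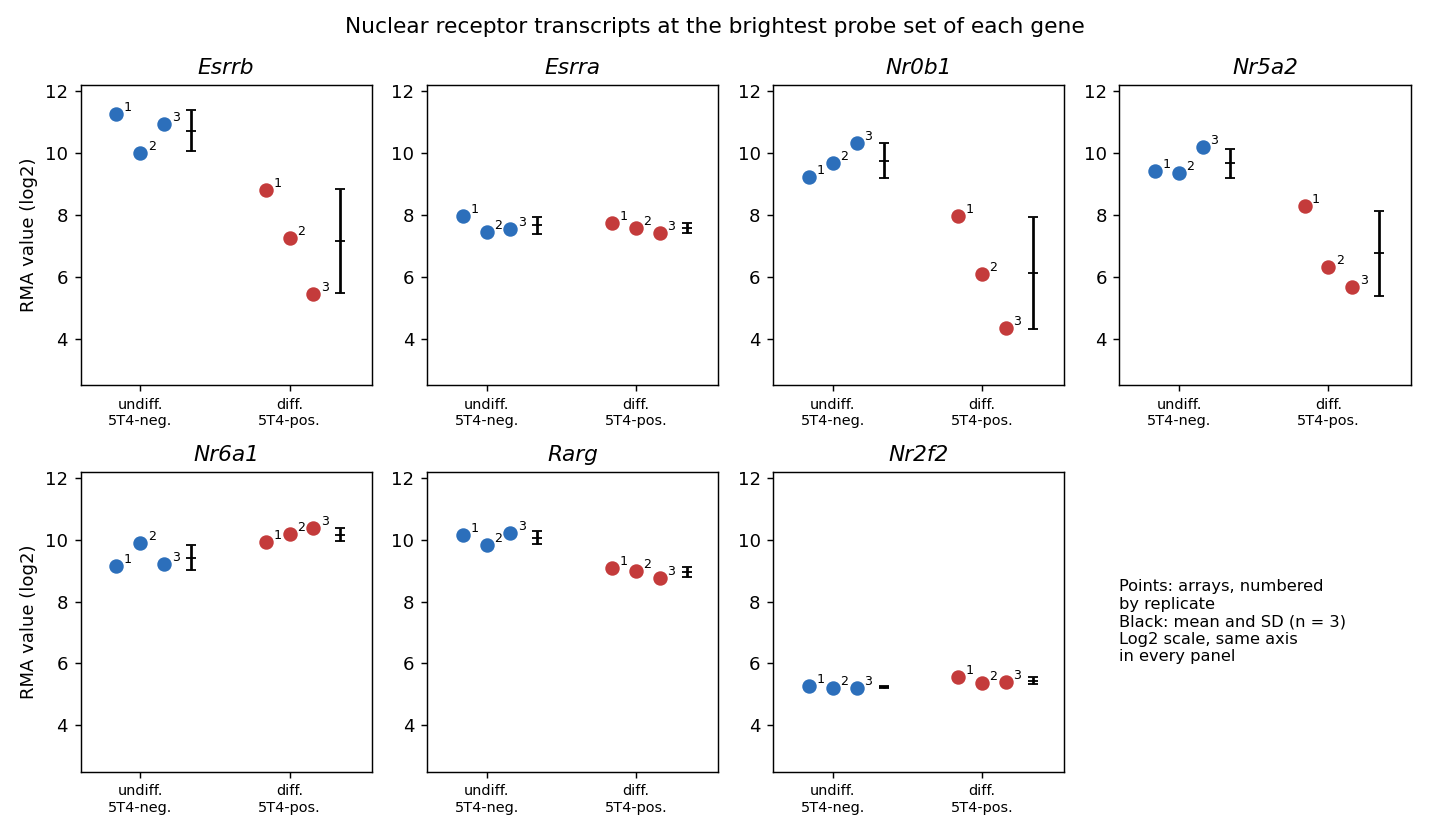
RMA values (log2, vertical axis) of the 7 receptor genes at the probe set with the highest mean, with undifferentiated 5T4-negative arrays in blue and differentiating 5T4-positive arrays in red, numbered by replicate, and black bars for the mean and SD (n = 3). Esrrb, Nr0b1, Nr5a2 and Rarg lie lower in all 3 differentiating arrays, Nr6a1 lies higher (9.94 to 10.38 against 9.16 to 9.89), Esrra overlaps, and Nr2f2 stays between 5.22 and 5.58.

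Before these values are given, 2 arrays need mention. Differentiating replicate 1 had the highest lower quartile of all arrays (4.26 against 4.07 to 4.10 in the others). It also had the highest median (5.65 against 5.54 to 5.57) and the lowest upper quartile (7.63 against 7.76 to 7.79). Its value was the highest of the 3 differentiating arrays in 18 of 23 member probe sets. Undifferentiated replicate 2 had the highest undifferentiated value of Tpbg, the gene of 5T4, at its brightest probe set (6.76 against 5.94 and 5.68, with 6.71, 7.52 and 7.97 in differentiating replicates 1, 2 and 3). The groups overlapped there (log2 fold change 1.27). At the next brightest Tpbg probe set they were separate (6.94, 7.32 and 7.52 against 5.60, 6.54 and 5.50, log2 fold change 1.39). They were also separate at the dimmest, with a log2 fold change of 0.38. None of these passed (adjusted p = 0.220, 0.118 and 0.237 from limma). Undifferentiated replicate 2 also had the highest undifferentiated value of Krt8, a keratin gene of simple epithelia (12.54 against 8.33 and 9.64). The labels put both arrays in their groups, and they were kept, with results also given without them. The 7 genes taken as ES cell markers (Pou5f1, the Oct4 gene, Sox2, Nanog, Zfp42, Sall4, Utf1 and Dppa4) had means over the 6 arrays at percentiles 96.3 to 98.1 of all probe sets, and read between 8.69 and 11.78 in differentiating and between 11.21 and 12.60 in undifferentiated arrays. Some other genes of the ES cell network read low in differentiating arrays, such as Tbx3 (4.38 to 5.65) and Prdm14 (4.57 to 6.77). Others read higher there, such as Tfcp2l1 (7.01 to 8.39) and Klf5 (9.36 to 10.12).

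Esrrb, which encodes the estrogen-related receptor of the naive network, was lower in differentiating cells at all 3 of its probe sets. At 1422986_at the values were 5.71, 5.19 and 4.47 in differentiating replicates 1, 2 and 3 and 8.49, 7.20 and 8.42 in undifferentiated replicates 1, 2 and 3. The groups did not overlap, and undifferentiated replicate 2 was the lowest of its group. The means were 5.12 ± 0.62 (SD, n = 3) and 8.04 ± 0.72 (SD, n = 3), and Esrrb was reduced 7.53-fold (log2 fold change -2.91, SE 0.43, 95% interval -3.93 to -1.89, adjusted p = 0.0592 from limma). The probe set with the highest mean, 1436926_at, read 8.81, 7.25 and 5.45 in differentiating cells and 11.25, 9.99 and 10.93 in undifferentiated cells. Here too the groups were separate, but the differentiating arrays were spread widely, with replicate 1 far above replicate 3. The log2 fold change was -3.55 (SE 0.80, 95% interval -5.44 to -1.67), which missed the threshold (adjusted p = 0.123 from limma). At 1441921_x_at, whose suffix marks probes that may also match other transcripts, the values were 8.37, 7.46 and 7.10 against 9.10, 8.51 and 9.12, which gives -1.27 on the log2 scale (95% interval -2.07 to -0.46, adjusted p = 0.176 from limma). The order of the arrays within a group was thus similar at the 3 probe sets, with differentiating replicate 1 highest, differentiating replicate 3 lowest and undifferentiated replicate 2 lowest of its group in each.

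Esrra, the paralog of Esrrb, was measured at 2 probe sets, and at both the groups overlapped. At 1460652_at it read 7.73, 7.56 and 7.43 in differentiating and 7.96, 7.46 and 7.55 in undifferentiated cells. The log2 fold change was -0.08 with a 95% interval of -0.48 to 0.31 (adjusted p = 0.874 from limma), an interval that holds no change of 1 in either direction. At the dimmer 1442864_at the values were 5.65, 5.34 and 5.07 against 5.33, 5.33 and 5.35, with a log2 fold change of 0.02 (95% interval -0.36 to 0.40). Whether Esrrb and Esrra differ in their response was not tested, and their intervals at the probe sets with the highest mean do not overlap.

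Nr0b1, the co-repressor receptor, had 1 probe set, 1417760_at, with values of 7.97, 6.08 and 4.35 in differentiating replicates 1, 2 and 3 and of 9.23, 9.69 and 10.34 in undifferentiated replicates 1, 2 and 3. All differentiating arrays lay below all undifferentiated ones, and differentiating replicate 1 was closer to undifferentiated replicate 1 than to differentiating replicate 3. The means were 6.13 ± 1.81 (SD, n = 3) and 9.75 ± 0.56 (SD, n = 3), with a log2 fold change of -3.62 (SE 0.84, 95% interval -5.60 to -1.64), 12.3-fold lower. This was the largest difference among the 23 probe sets, but it did not pass (adjusted p = 0.132 from limma).

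Nr5a2, which Nr0b1 is known to bind and restrain, had 4 probe sets, and 3 of them were separate between the groups. At 1420410_at, the one with the highest mean, the values were 8.30, 6.30 and 5.65 in differentiating and 9.42, 9.36 and 10.21 in undifferentiated cells. The means were 6.75 ± 1.38 (SD, n = 3) and 9.66 ± 0.47 (SD, n = 3), a log2 fold change of -2.91 (SE 0.65, 95% interval -4.44 to -1.38, adjusted p = 0.121 from limma). As with Nr0b1, differentiating replicate 1 stood nearest to the undifferentiated arrays. At 1456521_at the values were 6.54, 4.44 and 3.42 against 7.87, 8.05 and 8.96, which gives -3.49 on the log2 scale (95% interval -5.27 to -1.71, adjusted p = 0.115 from limma). At 1449706_s_at, whose suffix marks probes shared by several transcripts, they were 6.71, 5.66 and 5.09 against 7.33, 7.10 and 7.49, a log2 fold change of -1.49 (adjusted p = 0.163 from limma). None of the 4 probe sets passed. The remaining one, 1449707_at, was dim in every array (4.00 to 4.45), its mean ranked at percentile 26.3 of all probe sets, and its groups overlapped (log2 fold change -0.13, 95% interval -0.51 to 0.25).

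Rarg, the retinoic acid receptor, fell at both of its probe sets and had the smallest adjusted p among the members. At 1419415_a_at the values were 9.10, 9.00 and 8.76 in differentiating and 10.16, 9.82 and 10.21 in undifferentiated cells. The arrays of each group lay close together and the groups were separate. The means were 8.95 ± 0.17 (SD, n = 3) and 10.06 ± 0.21 (SD, n = 3), and Rarg was reduced 2.16-fold (log2 fold change -1.11, SE 0.16, 95% interval -1.48 to -0.74, adjusted p = 0.0538 from limma). At 1419416_a_at it read 7.63, 7.59 and 7.10 against 8.47, 8.40 and 8.80, and was reduced 2.17-fold (log2 fold change -1.12, SE 0.19, 95% interval -1.56 to -0.67, adjusted p = 0.0763 from limma). Both probe sets detect several transcripts of this gene, as their suffix marks, so isoforms are not separated. At the brightest probe sets the difference in Rarg was smaller in value than those of Esrrb, Nr0b1 and Nr5a2 (-1.11 against -3.55, -3.62 and -2.91), and its SE was smaller as well (0.16 against 0.80, 0.84 and 0.65).

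**Figure D2:**
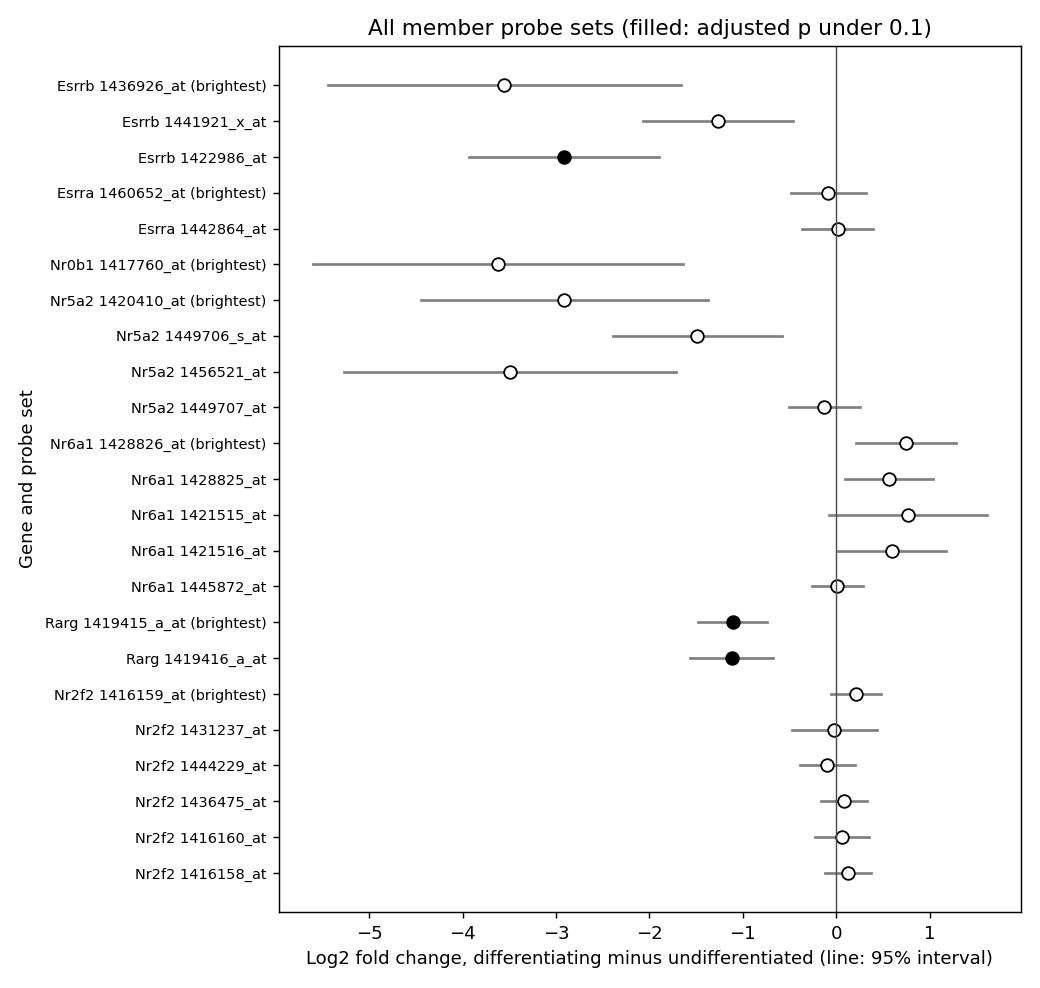
Log2 fold change of differentiating over undifferentiated cells (horizontal axis) for each of the 23 probe sets, with 95% intervals from limma as lines and filled points where the adjusted p is under 0.1. The filled points are 1422986_at of Esrrb and both probe sets of Rarg, at -2.91, -1.11 and -1.12, and 4 of 5 probe sets of Nr6a1 lie between 0.56 and 0.77.

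Nr6a1, the repressor of the Oct4 gene, went the other way. At 1428826_at it read 9.94, 10.18 and 10.38 in differentiating and 9.16, 9.89 and 9.20 in undifferentiated replicates 1, 2 and 3. The groups were separate by a narrow gap, 9.94 against 9.89, because undifferentiated replicate 2 stood close to the differentiating arrays. The means were 10.17 ± 0.22 (SD, n = 3) and 9.42 ± 0.41 (SD, n = 3), a log2 fold change of 0.75 (SE 0.23, 95% interval 0.21 to 1.29) that did not pass (adjusted p = 0.220 from limma). At 1428825_at the values were 9.23, 9.29 and 9.53 against 8.61, 9.20 and 8.55 (0.56 on the log2 scale, adjusted p = 0.278 from limma), and at 1421516_at 7.34, 7.44 and 7.51 against 6.32, 7.33 and 6.86 (0.60, adjusted p = 0.350 from limma). At 1421515_at they were 7.90, 8.38 and 8.45 against 6.77, 8.21 and 7.45, where the groups overlapped (0.77, 95% interval -0.08 to 1.61). Undifferentiated replicate 2 was the highest of its group at all 5 probe sets of Nr6a1. The last one, 1445872_at, was dim (3.70 to 3.97) and had a log2 fold change of 0.01.

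Nr2f2, the COUP-TFII gene, was dim at all 6 of its probe sets, with means at percentiles 2.17 to 46.5 of all probe sets. At the brightest, 1416159_at, the values were 5.58, 5.37 and 5.40 in differentiating and 5.27, 5.22 and 5.22 in undifferentiated cells. The groups were separate there, but the log2 fold change was 0.21 (95% interval -0.05 to 0.48), and limma gave an adjusted p of 0.475. At the other 5 probe sets the log2 fold change lay between -0.10 and 0.13 (adjusted p = 0.649 to 0.977 from limma). Without detection calls these values cannot be told from background, and they do not show whether Nr2f2 was transcribed in either group. Of the 7 genes called receptors of the naive state, those with lower values in differentiating cells were thus Esrrb, Nr0b1, Nr5a2 and Rarg, while no probe set of Esrra, Nr2f2 or Nr6a1 had every differentiating array below every undifferentiated one.

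At the brightest probe sets of Esrrb, Nr0b1 and Nr5a2 the SD was larger among differentiating arrays (1.68, 1.81 and 1.38) than among undifferentiated ones (0.65, 0.56 and 0.47), but not at 1422986_at of Esrrb (0.62 and 0.72) or at 1419415_a_at of Rarg (0.17 and 0.21). Relative to the undifferentiated mean, differentiating replicates 1, 2 and 3 lay at -1.92, -3.47 and -5.27 for Esrrb at 1436926_at. For Nr0b1 these differences were -1.78, -3.68 and -5.40, and for Nr5a2 at 1420410_at they were -1.36, -3.36 and -4.01. For Rarg at 1419415_a_at they were -0.96, -1.07 and -1.30, a much narrower range. For all 4 genes differentiating replicate 1 was nearest to the undifferentiated mean and replicate 3 farthest. Nr6a1 at 1428826_at was higher than the undifferentiated mean by 0.52, 0.77 and 0.96, with the same replicates nearest and farthest. Differentiating replicate 1 was also the highest of its group in 482 of the 695 probe sets (69.4%) of the whole array with a log2 fold change below -1, so its position was not particular to these receptors.

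The calls depended on single arrays. Without differentiating replicate 1, 9 member probe sets passed as lower, against 3 with all arrays: all 3 of Esrrb, that of Nr0b1 (log2 fold change -4.54, adjusted p = 0.050), 3 of 4 of Nr5a2 (at 1420410_at -3.68, adjusted p = 0.0310) and both of Rarg. Over the whole array 993 probe sets (2.2%) passed in this fit, against 462 lower and 258 higher with all arrays. When differentiating replicate 2, differentiating replicate 3 or undifferentiated replicate 3 was left out, no member probe set passed in limma. Over the whole array 0, 3 and 1 probe sets passed in these fits. The adjusted p of Rarg at 1419415_a_at was then 0.290, 0.240 and 0.234, and that of Esrrb at 1422986_at 0.296, 0.240 and 0.250. The log2 fold changes moved less, between -1.01 and -1.30 for Rarg and between -2.59 and -3.62 for Esrrb at these probe sets over every alternative fitted by probe set. Without undifferentiated replicate 2, Nr6a1 passed as higher at 1428826_at (log2 fold change 0.99, adjusted p = 0.0603) and at 1428825_at (0.77, adjusted p = 0.0825), and 3 probe sets of the members passed as lower, while 1491 probe sets of the whole array (3.31%) passed. Over all alternatives fitted by probe set the adjusted p ranged from 0.00706 to 0.416 for Nr0b1, from 0.00392 to 0.414 for Nr5a2 at 1420410_at, and from 0.0408 to 0.532 for Nr6a1 at 1428826_at.

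**Figure D3:**
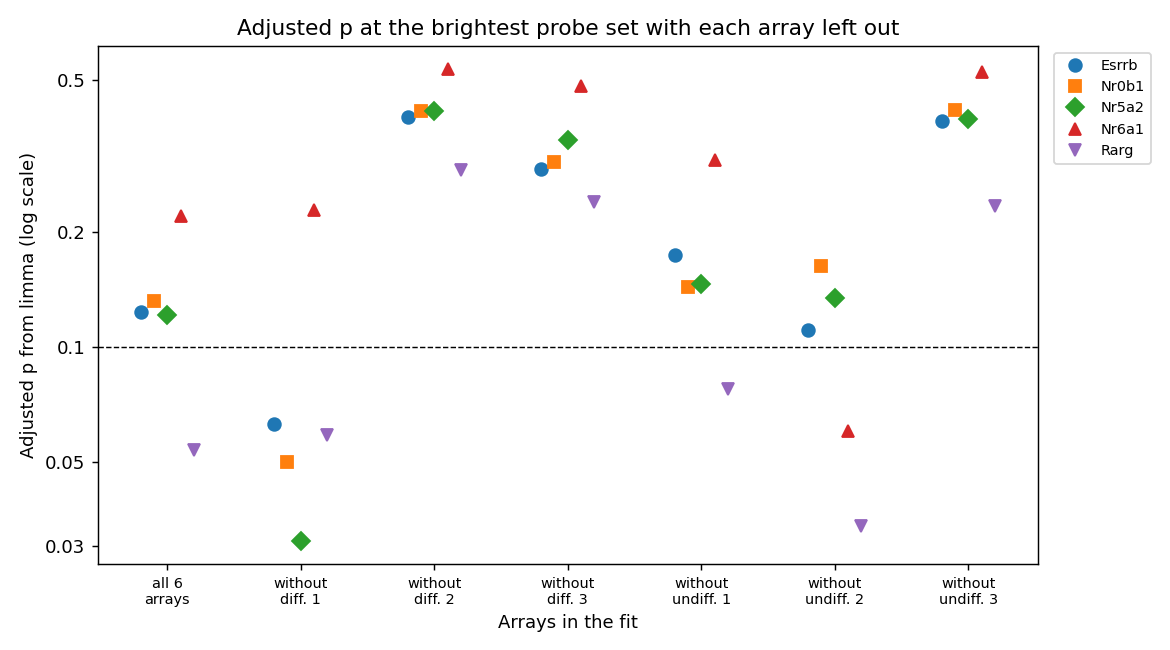
Adjusted p from limma (vertical axis, log scale) of Esrrb, Nr0b1, Nr5a2, Nr6a1 and Rarg at the probe set with the highest mean, for all 6 arrays and with each array left out, with the threshold of 0.1 as a dashed line. Without differentiating replicate 1 the points of Esrrb, Nr0b1, Nr5a2 and Rarg lie under the line, and without differentiating replicate 2 or 3 or undifferentiated replicate 3 none does.

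Undifferentiated replicate 2, which held the highest undifferentiated value of Nr6a1 and the lowest of Esrrb and Rarg, also differed from the other undifferentiated arrays in markers of other cell types. The summed linear level of 8 trophectoderm markers was 13229 in this array, against 1835 and 2589 in undifferentiated replicates 1 and 3 and 5952 to 11904 in the differentiating arrays, and it was the highest undifferentiated array in 5 of 8 of them. The sum was carried by the keratin genes Krt8 and Krt18, and the 6 transcription factor genes of the list added the rest. Cdx2 read 4.96, 5.69 and 4.92 in undifferentiated replicates 1, 2 and 3, Gata3 3.96, 5.13 and 4.24, and Hand1 5.41, 5.63 and 5.42, each highest in replicate 2, and Elf5 read 4.20, 4.29 and 4.30, Eomes 6.41, 6.33 and 6.20 and Tfap2c 9.70, 9.10 and 9.36. Its sum of 10 endoderm markers was 499 against 366 and 375 (608 to 714 in differentiating arrays, highest undifferentiated array in 6 of 10), and of 7 fibroblast markers 739 against 377 and 347 (482 to 1083, highest in 5 of 7). The endoderm excess was mostly that of Dab2 (5.63, 7.45 and 5.94 in undifferentiated replicates 1, 2 and 3). The fibroblast excess was mostly that of Col1a1 (6.18, 7.67 and 6.46) and Col1a2 (5.55, 8.44 and 6.51), while Thy1 was lowest in replicate 2 (7.24, 5.21 and 5.45). Of 9 genes of dissociation stress the sum was 3635, between the 4039 and 2847 of undifferentiated replicates 1 and 3, and replicate 2 was the highest undifferentiated array in 4 of 9, among them Jun (8.56 against 6.33 and 6.53). The sum of 6 neuroectoderm markers was 627 against 475 and 586, and that of 6 mesoderm markers 285 against 282 and 283. For the 15 genes of the ES cell network the sum was the lowest undifferentiated one, 31960 against 34847 and 42451 (15610 to 19570 in differentiating arrays). Replicate 2 was the highest undifferentiated array in 0 of 15 of them. The part of these in the values of the receptors was not tested. With both undifferentiated replicate 2 and differentiating replicate 1 left out, a choice made after seeing the data, 9 member probe sets were lower and 2 higher, and 1783 probe sets of the whole array (3.96%) passed.

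For each receptor whose values at the brightest probe set spanned over 1 log2 unit, the genes most like it were sought as those with the smallest root mean square difference over the 6 arrays, after each gene was centred on its own mean. For Esrrb, with a span of 5.80, these were Klf2 (0.28), a Krüppel-like factor of the naive network, Jam2 (0.31), an adhesion molecule of cell junctions, and Tcl1 (0.33), a cofactor of the kinase Akt. For Nr0b1, with a span of 5.99, they were Jam2 (0.28), Morc1 (0.49), a germ cell gene, and Nr5a2 (0.52), another of the receptors. For Nr5a2, with a span of 4.55, they were Tet2 (0.15), an enzyme that oxidises methylated cytosine, Zfp42 (0.25), the gene of the ES cell marker Rex1, and Fbxo15 (0.31), a classical Oct4 target. Rarg, with a span of 1.45, was nearest to Ccdc115, Napsa and Smagp (0.07, 0.07 and 0.08), and Nr6a1, with a span of 1.22, to Bscl2, Pogk and Ctnnd2 (0.03, 0.09 and 0.09). A smaller span leaves less room for differences, so these distances cannot be compared between receptors. Esrra and Nr2f2 spanned less than 1 and were not included.

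Among all nuclear receptors, 44 of 49 listed genes had a probe set, and at the brightest one 1 gene, Rarg, passed as lower and none as higher. Of the other 43, 8 had an unadjusted p under 0.05, and of all 17784 genes that did not pass 2720 did. Of all genes, 1.45% were lower and 0.797% were higher at that probe set. Of the 7 receptors described, 4 had groups that did not overlap and were lower there, against 12.8% of all genes, and 2 were higher, against 10.7%. The median log2 fold change of the family was 0.06, against 0.02 over all genes. None of the close relatives of the members passed. Rara, a retinoic acid receptor related to Rarg, read 7.01, 6.47 and 6.47 in differentiating and 7.34, 7.26 and 8.02 in undifferentiated cells (-0.89 on the log2 scale, adjusted p = 0.192 from limma), and Rarb had 0.36 (adjusted p = 0.665). The RXR partners Rxra, Rxrb and Rxrg had log2 fold changes of -0.19, -0.06 and -0.17. For Esrrg, the third estrogen-related receptor, it was 0.26, for Nr5a1, the relative of Nr5a2, 0.21, for Nr0b2, the relative of Nr0b1, 0.01, and for Nr2f1 and Nr2f6, the relatives of Nr2f2, -0.23 and -0.11. The largest increase in value was that of Pgr, the progesterone receptor, with 4.47, 5.33 and 5.45 against 3.76, 3.95 and 3.68 (log2 fold change 1.28, adjusted p = 0.105 from limma), which did not pass. Pgr was dim, with its mean at percentile 31.4 of all probe sets, and its values may be background.

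**Figure D4:**
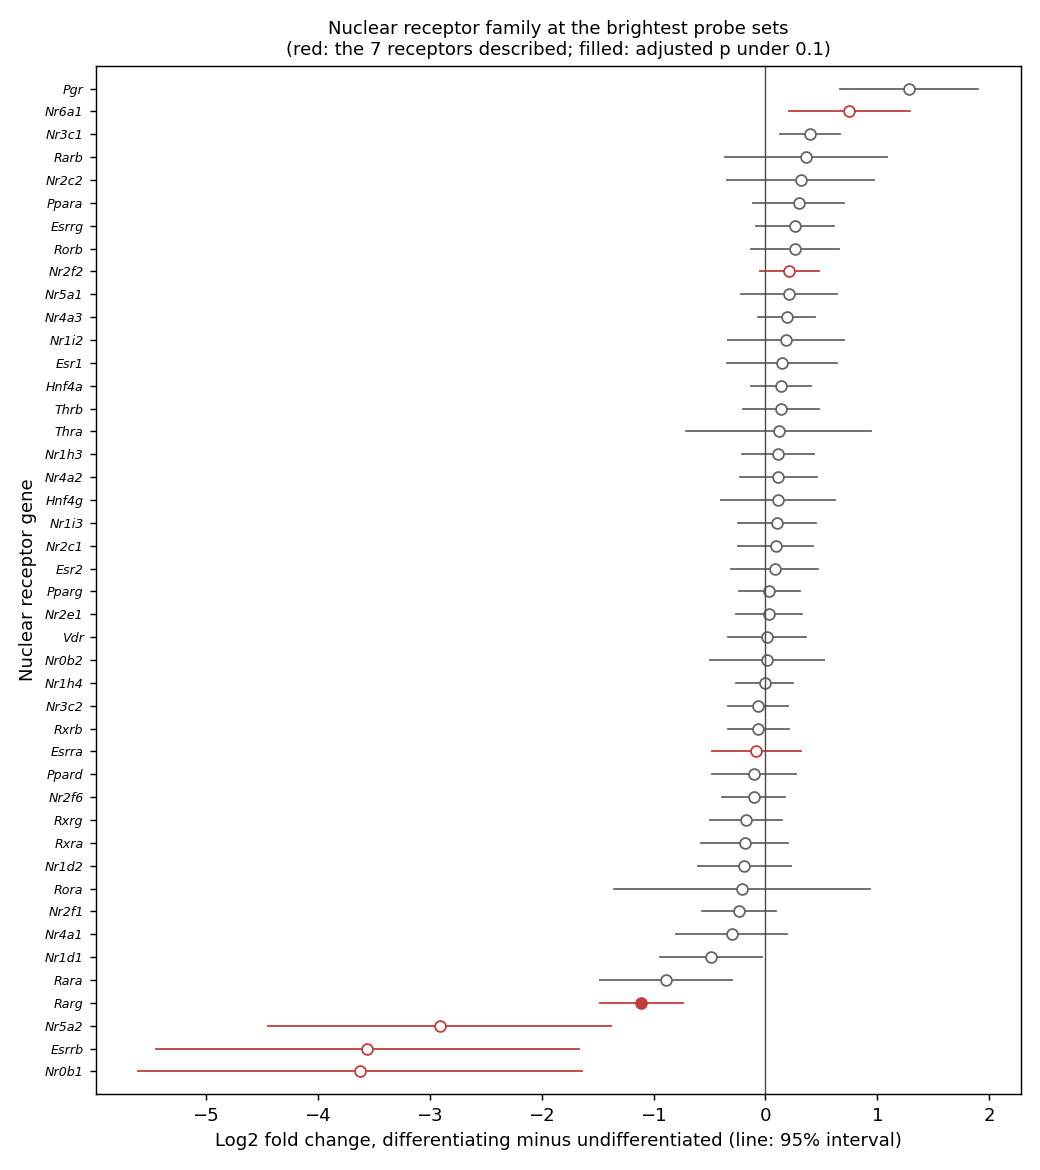
Log2 fold change of differentiating over undifferentiated cells (horizontal axis) with 95% intervals from limma for the 44 nuclear receptor genes at the probe set with the highest mean, sorted by value, with the 7 receptors described in red and a filled point where the adjusted p is under 0.1. Nr0b1, Esrrb, Nr5a2 and Rarg have the lowest values, from -3.62 to -1.11, and Rarg is the filled point.

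Coregulators carry the effect of these receptors to chromatin, and 18 of 20 listed were measured. Ncoa3, a coactivator that Esrrb is known to recruit in ES cells, fell by 1.20 on the log2 scale, with 8.06, 7.86 and 7.50 in differentiating and 9.21, 8.91 and 8.92 in undifferentiated cells (adjusted p = 0.0592 from limma). None was higher, 17 did not pass (2 of them with an unadjusted p under 0.05), and the median was 0.14. Of the retinoic acid pathway, in which Rarg acts, 15 of 18 genes were measured and Dhrs3, an enzyme that turns retinaldehyde back to retinol, rose by 0.88, with 6.82, 6.72 and 6.88 against 5.74, 6.13 and 5.90 (adjusted p = 0.0661 from limma). None of that list was lower in limma, 14 did not pass (5 with an unadjusted p under 0.05), and the median was 0.05. Stra8, a retinoic acid target known from meiosis, had 8.10, 5.87 and 6.31 against 9.59, 8.63 and 8.83, a log2 fold change of -2.26 that did not pass (adjusted p = 0.157 from limma). Neither Ncoa3 nor Dhrs3 passed when differentiating replicate 2 or 3 or undifferentiated replicate 3 was left out, since the counts of both lists were then 0.

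In the network in which the naive receptors act, all 15 genes had a negative log2 fold change, against 8439 of all 18193 genes. Of these 15, 6 passed as lower and none as higher, against 1.45% and 0.797% of all genes. Of the other 9, 8 had an unadjusted p under 0.05, against 2720 of all 17784 genes that did not pass. The list was chosen with earlier results of these data known. The median log2 fold change was -2.33. Among those that passed were Tbx3, Klf4 and Tfcp2l1, factors that LIF is known to sustain, with -3.27, -4.20 and -2.33, and Pou5f1 with -0.68 (adjusted p = 0.0400, 0.0669, 0.0677 and 0.0859 from limma). The differences in Esrrb, Nr0b1 and Nr5a2 lay within the range of this list, which ran from -4.20 to -0.15. The count of 6 became 0 when differentiating replicate 2 or 3 or undifferentiated replicate 3 was left out. Among markers of other cell types, Tfap2c, of the trophectoderm list but also transcribed in ES cells, fell by 2.84 (adjusted p = 0.0818 from limma), and its call was lost without any one of those arrays or undifferentiated replicate 1. No endoderm, mesoderm, neuroectoderm or fibroblast marker passed in limma, of 10, 6, 6 and 7 measured, and 2, 0, 1 and 1 of them had an unadjusted p under 0.05. The largest differences among them were 1.96 for Dab2, 0.12 for Mesp1, 1.18 for Nes and 1.38 for Col1a2. Of 9 genes of dissociation stress none passed either, and 2 had an unadjusted p under 0.05, with the largest difference for Jun (1.71, adjusted p = 0.265 from limma).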

How the data were processed

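Affymetrix arrays of 3 differentiating and 3 undifferentiated E14TG2a samples were used. The authors ran RMA from the affy library (version not given in the sources used here). Their deposited log2 values, 1 per probe set and array, had thus been background corrected and normalized between arrays. From the 45101 probe sets, 64 controls were removed. The platform annotation gave 34945 of the 45037 tested probe sets 1 symbol, 932 several and 9160 none. The groups were compared by limma (version 3.58.1, R 4.3.3, functions lmFit and eBayes, without covariates, prior degrees of freedom 2.93) and Benjamini-Hochberg adjustment over all probe sets. Probe sets passed at an adjusted p under 0.1, and the methods' further threshold of a log2 fold change of at least 1 was an alternative. List genes were read at the probe set of highest mean. The fit was tested on simulated data with independent normal noise of the same spread in both groups. That test does not cover unequal spreads, such as those seen at Nr0b1. No depth applies to arrays, and their number limits the precision. The members and lists were chosen with earlier results of these data known. Every member was named, and from other lists those that passed, at most 4 of smallest adjusted p, or otherwise the largest difference. Rara, Rarb, Rxra, Rxrb, Rxrg, Esrrg, Nr5a1, Nr0b2, Nr2f1, Nr2f6, Pgr, Stra8, Prdm14, Cdx2, Elf5, Krt8, Krt18, Gata3, Hand1, Eomes and Jun's values by array were named after their values were seen. The same holds for Klf5, Col1a1, Thy1 and the values by array of Dab2 and Col1a2. No correlation is given for the nearest genes because the arrays fall into separate groups.

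The fit was repeated with array weights, a trended robust variance, a replicate block, quantile normalization or median centring of the values, the dim probe sets removed, the controls included, other thresholds, the mean over a gene's probe sets and each array left out. Protein sequences and gene positions beyond the promoter windows were not used here.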

Additional observations from a re-analysis of the deposited data

How the results depend on the processing

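The direction of each difference in Esrrb, Nr0b1, Nr5a2 and Rarg, and of Nr6a1 at its 4 brighter probe sets, was kept in all alternatives, and no value that passed changed sign. Counts are of genes at the brightest probe set, except for the members, which are counted by probe set. Leaving out each array in turn gave 0 to 9 lower and 0 to 2 higher member probe sets, 0 to 4 lower and 0 to 1 higher genes of the receptor family, 0 to 1 lower coregulators, 0 to 1 lower and 0 to 2 higher genes of the retinoic acid pathway, and 0 to 9 lower genes of the ES cell network. It gave 0 to 1 higher endoderm markers, 0 to 1 lower and 0 to 2 higher trophectoderm markers, 0 to 1 higher neuroectoderm markers, 0 to 1 higher fibroblast markers and 0 to 2 higher genes of dissociation stress. With the probe sets of below-median mean over all arrays left out, 6 of 14 remaining member probe sets and 3 family genes were lower. Fewer probe sets were tested there. That mean covers both groups, so a probe set can be kept through its undifferentiated values alone. An example is 1456521_at of Nr5a2, with means of 4.80 in differentiating and 8.29 in undifferentiated arrays. The added calls are therefore no separate support. Of all probe sets in that fit, 3.69% passed in either direction. With array weights, 15.9% of all probe sets passed, and members were 9 lower and 2 higher, the family 5 lower and 3 higher, coregulators 2 lower and 1 higher, the retinoic acid pathway 3 lower and 2 higher, the ES cell network 13 lower, endoderm 2 higher, neuroectoderm 2 higher, fibroblast 1 higher and stress 1 lower and 1 higher. At an adjusted p under 0.05, lower counts were 0 for the members, 0 for the family, 0 for coregulators, 1 for the ES cell network and 0 for trophectoderm, and 0 genes of the retinoic acid pathway were higher. With a log2 fold change of at least 1 required, 0 genes of the retinoic acid pathway were higher. The trended robust variance gave 1 family gene higher and 10 ES cell network genes lower. The mean over a gene's probe sets, with which 3.73% of all genes passed in either direction, gave 4 family genes lower and 1 higher. The 4 lower ones were the members Rarg, Esrrb, Nr0b1 and Nr5a2 (adjusted p = 0.0455, 0.0728, 0.0952 and 0.0972 from limma). Genes were tested there in place of probe sets, so there were fewer tests. That fit also gave 1 endoderm marker higher and 1 stress gene lower. Median centring gave 1 stress gene lower. Without differentiating replicate 1 and undifferentiated replicate 2 together, 9 member probe sets were lower and 2 higher, the family had 4 lower and 2 higher, the retinoic acid pathway 1 lower and 2 higher, endoderm 1 higher, trophectoderm 1 higher, neuroectoderm 2 higher, fibroblast 1 higher and stress 2 higher. The cause of these shifts was not tested. Same-numbered arrays did not deviate together in each pair (r of deviations 0.21, -0.11 and 0.11 for numbers 1, 2 and 3), so the numbers are not taken to pair the samples. With the replicate block, 653 probe sets passed, against 462 lower and 258 higher without it, Rarg at 1419416_a_at no longer passed (adjusted p = 0.128 from limma), and the retinoic acid pathway had 1 gene lower and 0 higher.

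With 3 arrays per group the threshold was missed by differences as large as that of Nr0b1, and a receptor that did not pass is not shown to be unchanged. Dim probe sets, such as those of Nr2f2, limit what the arrays can show, since no detection calls were used.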
